A study of Mus musculus with 4 samples.

Results

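The cells described here are Dlx-expressing neuroblasts and immature neurons in the mouse brain hemisphere after transient middle cerebral artery occlusion (tMCAO), a filament model of stroke in which the vessel is blocked and then reopened. They were chosen by their own UMIs (unique molecular identifiers, each standing for 1 captured RNA molecule). A member had a UMI of Dcx or Sox11, a UMI of at least 2 of Dlx1, Dlx2, Dlx5 and Dlx6os1, and at most 1 UMI in total of Mog, C1qa and Pdgfra, genes of oligodendrocytes, microglia and oligodendrocyte precursors. Of 54754 cells kept at 200 to 6000 genes and at most 10% mitochondrial UMIs, 456 cells (0.833%) met the rule, of which 95 were in the sham library and 211, 74 and 76 in the libraries of days 1, 3 and 7 after tMCAO. They are called Dlx+ cells in the text and members in the plots.

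All groups were male mice 8 weeks old, per the labels, and the study's methods give C57/BL6 as the strain, and name sevoflurane as the anaesthetic and no transgene. The sham group had the surgery without the occlusion and is placed at day 7 by the series' design. The hemisphere on the operated side was digested with papain and spun through 30% Percoll to take off myelin. Each group was 1 library, the number of mice behind it was not given in the sources used here, and so no value below has a replicate check and no p-value is given. Intervals are exact, at 95%, and cover counting error only.

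Neuroblasts are the migrating daughters of neural progenitors. In the adult mouse forebrain they arise in the wall of the lateral ventricle, the subventricular zone, where stem cells give transit amplifying cells, which divide and give neuroblasts marked by Dcx. The Dlx genes encode homeodomain transcription factors of the ventral forebrain that drive the GABAergic interneuron fate, and Sox11 is a transcription factor of immature neurons. Most of these neuroblasts travel to the olfactory bulb and become interneurons there, and after a stroke part of them are known to turn towards the injured striatum.

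The 4 libraries held 59429 cells and between 69392755 and 104023002 UMIs each before filtering. The Dlx+ cells carried 748895, 1180832, 400182 and 544993 UMIs in all in sham and on days 1, 3 and 7, and their median depth was 5969, 3136, 4523.5 and 5623.5 UMIs in that order. On day 1 they were thus shallower than in the other libraries and shallower than the kept cells of their own library, which had a median of 3783 UMIs. No 2 libraries shared a barcode among their Dlx+ cells, whereas kept cells shared 21 to 80 barcodes per pair of libraries and 7 Dlx+ cells had a barcode that a kept cell of another library also had. Scrublet, a doublet caller, marked 29 of the 456 cells, which stayed in.

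Before the values, promoter sequences are given for 3 genes of the division machinery whose levels mark the dividing Dlx+ cells below, and for Dlx2, a gene of the rule, so that the stretches in front of both kinds of gene can be compared. Top2a encodes the topoisomerase that untangles chromosomes, Cdk1 the kinase that starts mitosis and Ube2c a ubiquitin-conjugating enzyme that ends it. Each stretch is 215 bases long, runs from 250 to 36 bases before the RefSeq start on GRCm38.p6 and is written 5′ to 3′ on the gene's strand. Capitals mark the letters CCAAT on either strand, the box that the factor NF-Y is known to bind, with overlapping matches counted separately.
Top2a (chr11:99024225-99024439, minus strand): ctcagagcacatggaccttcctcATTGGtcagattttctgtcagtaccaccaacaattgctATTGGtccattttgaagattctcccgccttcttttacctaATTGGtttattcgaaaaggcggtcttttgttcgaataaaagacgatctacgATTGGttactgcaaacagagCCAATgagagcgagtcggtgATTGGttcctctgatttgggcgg
Cdk1 (chr10:69352948-69353162, minus strand): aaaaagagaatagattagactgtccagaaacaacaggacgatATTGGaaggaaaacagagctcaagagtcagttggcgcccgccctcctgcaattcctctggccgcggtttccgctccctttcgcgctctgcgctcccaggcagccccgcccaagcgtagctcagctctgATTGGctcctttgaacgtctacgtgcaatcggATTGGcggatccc
Ube2c (chr2:164769679-164769893, plus strand): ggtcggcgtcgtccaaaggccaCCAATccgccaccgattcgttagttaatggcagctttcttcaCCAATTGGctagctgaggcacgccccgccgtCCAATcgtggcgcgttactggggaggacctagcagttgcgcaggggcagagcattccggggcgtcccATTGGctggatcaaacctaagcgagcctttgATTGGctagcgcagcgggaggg
Dlx2 (chr2:71546790-71547004, minus strand): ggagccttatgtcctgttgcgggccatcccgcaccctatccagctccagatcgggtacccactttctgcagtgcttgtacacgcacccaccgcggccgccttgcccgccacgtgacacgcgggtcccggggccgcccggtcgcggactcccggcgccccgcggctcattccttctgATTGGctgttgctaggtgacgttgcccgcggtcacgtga
The Top2a and Ube2c stretches each hold 6 matches, Cdk1 holds 3 and Dlx2 holds 1. At least 2 matches stood in 6 of the 8 genes of the cell cycle list that the RefSeq table holds, namely Ccnb1, Cdk1, Cenpf, Mki67, Top2a and Ube2c. Among the 5 rule genes in the table, Dcx, Dlx2 and Sox11 had a match and 0 had 2 or more. Over 32851 promoters of the same length, 30.4% had a match and 8.07% had at least 2. These shares are per promoter, whereas a list gene with several starts was scored by the start with most matches. A match describes these letters and not binding.

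The genes that chose the cells are given first, as a description. Levels are in CPM, the summed UMIs of a gene over those of all genes in the Dlx+ cells, scaled to the usual common total. Dcx, a microtubule-binding protein of migrating neurons (ENSMUSG00000031285, GRCm38 chrX:143855842-143933311, minus strand), was at 256 CPM in sham (interval 221 to 295) and at 289.6, 329.9 and 462 CPM on days 1, 3 and 7. Sox11 (ENSMUSG00000063632, chr12:27334264-27342574, minus strand) was at 752, 1011, 1147 and 1802 CPM in the same order. Both were lowest in sham and highest on day 7, where Sox11 stood at 2.40 times sham (2.16 to 2.66).

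Dlx1 (ENSMUSG00000041911, chr2:71528113-71533981, plus strand) was at 300.4 CPM in sham and at 315, 429.8 and 530.3 CPM after tMCAO. Its neighbour Dlx2 (ENSMUSG00000023391, chr2:71543408-71546754, minus strand) was at 247, 249.8, 397 and 415 CPM. Dlx6os1, a long noncoding RNA that lies antisense to Dlx6 (ENSMUSG00000090063, chr6:6820189-6871592, minus strand), was at 409.9, 428, 605 and 591 CPM. Dlx5 (ENSMUSG00000029755, chr6:6877805-6882085, minus strand) went its own way, at 218, 89.8, 232 and 217 CPM, so that it stood at 0.412 times sham (0.320 to 0.530) on day 1 and near sham on days 3 and 7. In the other kept cells each of the 6 genes was between 0.206 and 12.8 CPM.

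**Figure D1:**
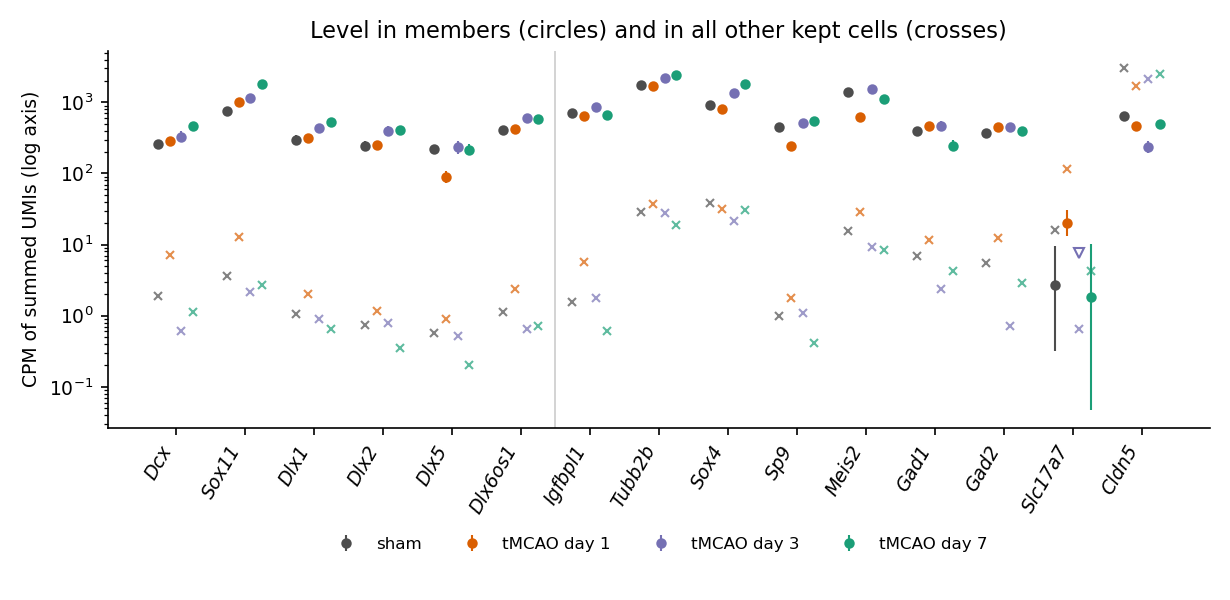
Level of 15 genes in the Dlx+ cells (circles, with exact Poisson intervals) and in all other kept cells (crosses) of each library, in CPM on a log axis; the 6 genes of the rule stand left of the grey line, and the triangle stands for 0 UMIs, drawn at the floor of 3 counts. The rule itself sets the circles of its genes far above the crosses, Dlx5 dips on day 1, and the endothelial gene Cldn5 is higher in the other kept cells.

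Near its thresholds the rule met most cells on day 1. Among 1839 kept cells with a UMI of Dcx or Sox11, 1217 had no Dlx gene, 124 had 1 and 498 had at least 2. Just inside that threshold, with exactly 2 Dlx genes, there were 23 in sham, 106 on day 1, 18 on day 3 and 12 on day 7, and just outside it, with 1 Dlx gene, 12, 86, 13 and 13. The limit on Mog, C1qa and Pdgfra removed 42 cells, 5 of them with exactly 2 UMIs, and 38 Dlx+ cells had exactly 1 UMI of these genes. A Dcx UMI was found in 361 of the 456 cells and a Sox11 UMI in 396, and 301 had both.

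The label was then checked against other markers of immature neurons, which the rule did not read although the same cells carry them. Of 12 such genes, all 12 passed the filters of the comparisons below on every day. Those filters do not ask whether a gene is higher in these cells than in others. Summed, the 12 genes were at 12329, 12246, 13826 and 15949 CPM in sham and on days 1, 3 and 7. In the other kept cells they were at 1631, 1658, 1022 and 1320 CPM. Among endothelial-like cells, thinned as below, Stmn1 was found in 30.3% to 51.1% and Stmn2 in 16.4% to 22.1%. Named next are those of the 12 that are also among the 25 genes set apart below by their excess over the other kept cells. Igfbpl1, a marker of forebrain neuroblasts, was at 718 CPM in sham and 637, 869.6 and 672 CPM on days 1, 3 and 7, against at most 5.63 CPM in the other kept cells. Tubb2b, a tubulin of growing neurons, was at 1776, 1712, 2179 and 2453 CPM, and Sox4, the partner of Sox11, at 905, 806, 1362 and 1800 CPM. The defining markers of the label were thus present in every library, though not alike in every cell, as given below for cells with genes of mature neurons.

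Genes of the GABAergic lineage were high as well, though not in these cells alone. The GABA list was at 1134, 1428, 1262 and 930 CPM in sham and on days 1, 3 and 7. In the other neurons it was at 929, 341, 1274 and 1420 CPM. Gad2, which makes GABA, was at 369.9, 452, 445 and 393 CPM and its sister enzyme Gad1 at 389.9, 458, 467 and 246 CPM. The ventral forebrain factor Sp9 (449, 241, 515 and 545 CPM) was at most 1.77 CPM in the other kept cells. The 7 genes of the glutamatergic list, by contrast, summed to 5.34, 32.2, 0 and 3.67 CPM. Of 1347 genes with at least 100 CPM in the Dlx+ cells of every library, 25 were at least 10 times as high there as in the other kept cells of each library. That count was taken after 10 CPM were added to both levels. Sox11, Dcx, Dlx1, Dlx2 and Dlx6os1 are among the 25 through the rule itself and say nothing further about the label. Beside the other genes above, the rest included Insm1, Pou3f2, Nrxn3, Cdca7 and Pclaf. In sham Nrxn3 was at 561 CPM, against 528 CPM in the other neurons.

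RNA of other cell types was present too. The rule's limit on Mog, C1qa and Pdgfra had already removed 42 cells with RNA of oligodendrocytes, microglia or oligodendrocyte precursors. The low levels of microglial and oligodendrocyte genes given here are thus set in part by the rule and are no check of it. Microglial genes were at 14.7 to 41.5 CPM against 313 to 1469 CPM in the other kept cells, and 0, 0, 0 and 1 cells had 3 of the 6 genes. Endothelial genes summed to 2465, 1743, 1394 and 2108 CPM, and between 93.01% and 97.0% of those UMIs sat in the 15, 28, 7 and 12 cells with at least 3 of the 6 genes. Whether these droplets held more than 1 cell was not tested. Counting also mural, choroid plexus and ependymal genes, 22.1% of the Dlx+ cells in sham and 17.5%, 13.5% and 23.7% on days 1, 3 and 7 had at least 3 genes of another type (21, 37, 10 and 18 cells). Choroid plexus genes, nearly all Ttr, were at 2231, 27852, 2464 and 1028 CPM, and on day 1 9 cells held 95.4% of them. That count leaves out other glia and blood. At least 3 of 7 oligodendrocyte genes were found in 5, 1, 2 and 3 Dlx+ cells and 3 of 7 astrocyte genes in 0, 5, 0 and 2. Genes of blood and immune cells, mostly haemoglobin RNA, were at 619.6, 15.2, 192 and 1279 CPM, with 0 cells holding 3 of 6.

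The Dlx+ cells took their largest share of the kept cells on day 1 and their smallest on day 7. The share was 0.932% in sham (0.755 to 1.14), 1.26% on day 1 (1.10 to 1.44), 0.655% on day 3 (0.515 to 0.822) and 0.459% on day 7 (0.362 to 0.574). The intervals of sham and day 1 overlapped, as did those of sham and day 3 and those of days 3 and 7, while the day 7 interval lay below those of sham and day 1. Per 100 other neurons of the same library, cells that were not members and had 3 of 6 mature neuron genes, there were 83.3 Dlx+ cells in sham and 25.7, 370 and 230.3 on days 1, 3 and 7, because the other neurons numbered 114, 822, 20 and 33. A share of a library cannot tell a change in these cells from a change in the others that survived digestion.

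**Figure D2:**
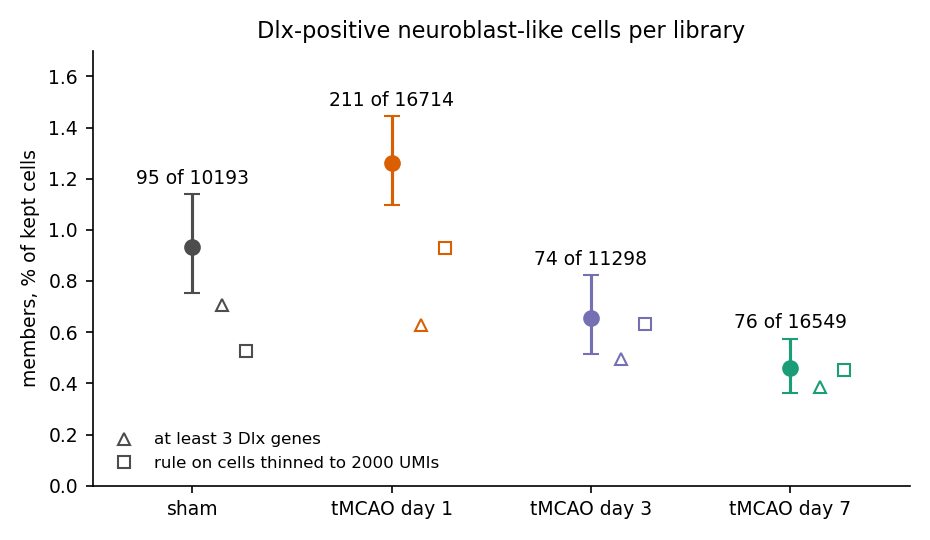
Dlx+ cells as a percent of the kept cells of each library, with exact binomial intervals (counting error only); open triangles are shares with 3 Dlx genes required and open squares shares with the rule on thinned cells. By the rule as given, the day 1 value, 1.26%, is the highest and the day 7 value, 0.459%, the lowest.

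How the rule is set moved these shares. With 3 Dlx genes required, the day 1 share was 0.628% and the sham share 0.706%, so that day 1 was no longer the higher. When each cell was first thinned to 2000 UMIs, the shares were 0.527%, 0.927%, 0.634% and 0.453% in sham and on days 1, 3 and 7, so that sham was below day 3.

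Within the Dlx+ cells, genes of division and genes of mature neurons were found in different cells. Each of the 410 cells with at least 2000 UMIs was thinned to 2000 and scored as dividing if it kept UMIs of 2 of 10 cell cycle genes, and as a mature-gene cell if it kept UMIs of 2 of 8 genes of mature neurons, such as the synaptic genes Snap25 and Syt1 and the neurofilament gene Nefl. By that count 69 cells were dividing, 97 were mature-gene cells, 0 were both and 244 were neither.

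Dividing cells were 10 of 91 in sham (11.0%, 5.40 to 19.3), 37 of 177 on day 1 (20.9%, 15.2 to 27.6), 5 of 72 on day 3 (6.94%, 2.29 to 15.5) and 17 of 70 on day 7 (24.3%, 14.8 to 36.01). Days 1 and 7 were higher and sham and day 3 lower, and every pair of intervals overlapped, those of day 3 with days 1 and 7 narrowly. Without thinning, the shares were 14.7%, 20.9%, 6.76% and 26.3%. Endothelial-like cells thinned alike were dividing in 0.105%, 2.76%, 0.868% and 0.0610% of cells, and other neurons in 0 of 104, 783, 18 and 32 cells, which at the limit of 3 counts allows shares of up to 2.88%, 0.383%, 16.7% and 9.38%.

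Mature-gene cells were 33 of 91 in sham (36.3%, 26.4 to 47.0), 34 of 177 on day 1 (19.2%, 13.7 to 25.8), 20 of 72 on day 3 (27.8%, 17.9 to 39.6) and 10 of 70 on day 7 (14.3%, 7.07 to 24.7). The sham interval lay above those of days 1 and 7. Without thinning, the shares were 43.2% (33.0 to 53.7), 22.7%, 35.1% and 23.7% (14.7 to 34.8), and the intervals of sham and day 7 overlapped. Endothelial-like cells were at 0.544%, 4.04%, 0.0606% and 0.305%, below the Dlx+ cells of the same library in each case.

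A share of the Dlx+ cells carried genes of olfactory bulb interneurons, the cells that neuroblasts of the subventricular zone become. After thinning, UMIs of 2 of 8 such genes were present in 23.1% of them in sham (21 of 91, interval 14.9 to 33.1) and in 9.04% on day 1 (16 of 177, 5.26 to 14.3). The share was 20.8% on day 3 (15 of 72, 12.2 to 32.0) and 5.71% on day 7 (4 of 70, 1.58 to 14.0). Sham and day 3 were thus the higher pair, and the sham interval lay above those of days 1 and 7. At 1000 UMIs per cell the shares were 13.7% (7.49 to 22.3), 5.26% (2.66 to 9.22), 14.9% and 1.33%, and the intervals of sham and day 1 overlapped. Without thinning, the shares were 37.9%, 14.2%, 29.7% and 13.2%, and in endothelial-like cells thinned alike they were 0.0209%, 0.140%, 0.0808% and 0.0305%. In other neurons thinned alike the shares were 9.62%, 3.96%, 50% (9 of 18 cells) and 9.38%, above the Dlx+ cells on days 3 and 7.

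**Figure D3:**
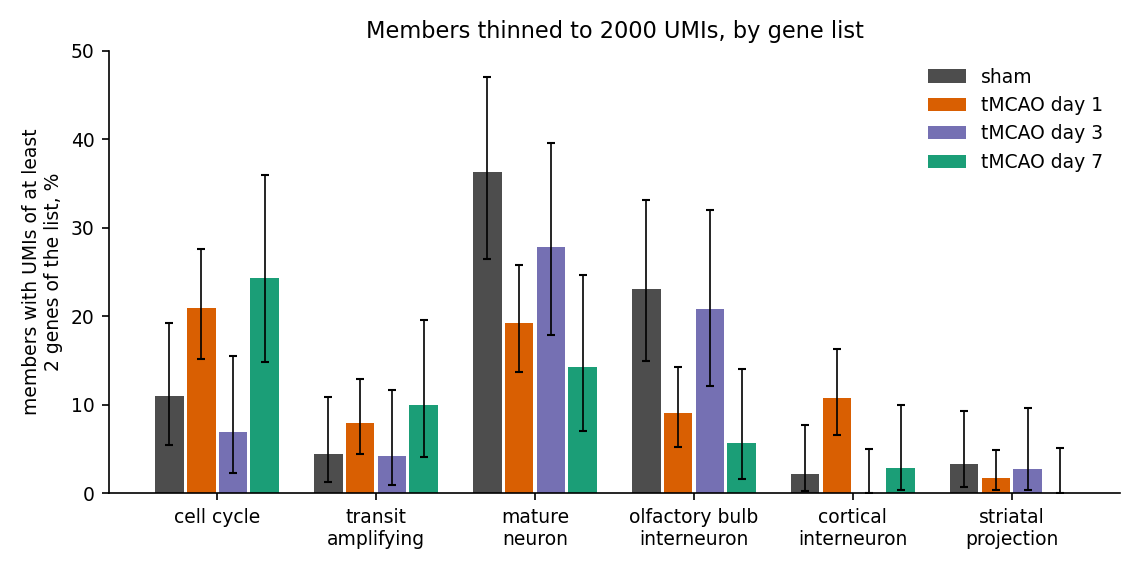
Percent of Dlx+ cells, each thinned to 2000 UMIs, with UMIs of at least 2 genes of a list, by library, with exact binomial intervals. Dividing cells are most frequent on days 1 and 7 (20.9% and 24.3%) and mature-gene cells in sham (36.3%).

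The dividing cells were compared with the other Dlx+ cells over all libraries pooled, as a description, since a cell was called on genes of its own RNA. Genes of transit amplifying cells were at 2.75 times the level of the others (2.10 to 3.57), and higher in 4 of 4 libraries. Pclaf, a partner of the replication clamp, was at 24.1 times (16.6 to 36.004) and Ccnd2, the cyclin that carries neural progenitors through G1, at 2.24 times (1.94 to 2.58). Dcx was lower, at 0.677 times (0.483 to 0.930), and Sox11 was at 1.21 times (1.04 to 1.40), by library at 1.90 in sham and 1.09, 0.757 and 1.05 on days 1, 3 and 7, where only the sham interval (1.27 to 2.78) left out 1. The rule read both genes, and a cell without a UMI of 1 of them needed a UMI of the other. Their opposite directions are thus set in part by the rule and are a description only. GABA genes were at 0.290 times and Gad1 alone at 0.0724 times (0.0196 to 0.188), from 4 UMIs in the dividing cells. By library, Gad1 was at 0.0289 times on day 1 and 0.292 times on day 7, with 0 UMIs in the dividing cells of sham and day 3.

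The mature-gene cells were described in the same way. Their 12 further neuroblast genes, thinned, were at 5742, 6279, 7575 and 17350 CPM in sham and on days 1, 3 and 7, against 20017, 19622, 20260 and 19325 CPM in the rest of the thinned Dlx+ cells. In the other neurons, unthinned, those genes were at 3323, 4977, 3417 and 3233 CPM. In sham and on days 1 and 3 the label of neuroblasts and immature neurons thus went against the markers of these cells, which carried them at under 0.4 times the level of the rest. Their genes of the GABA list were at 3.77 times those of the others (3.31 to 4.30), with Gad1 at 6.18 times (4.80 to 8.01) and the vesicular GABA transporter Slc32a1 at 4.01 times (2.80 to 5.76). Igfbpl1 was at 0.283 times and the microtubule destabiliser Stmn1 at 0.332 times. Sox11 and Dcx, which the rule read, were at 0.259 and 0.572 times, given as a description only. On day 7, with 10 such cells, GABA genes were higher too, at 2.79 times (1.85 to 4.12), but the 12 neuroblast genes were at 0.898 times (0.7997 to 1.01), with Stmn1 at 0.883 times (0.717 to 1.08) and Igfbpl1 at 1.17 times (0.666 to 1.96). Some subtype genes were counted as well. Calb2, the calretinin of olfactory bulb interneurons, had 495 UMIs in the 97 mature-gene cells and 172 in the 313 others over all libraries, of which 289 against 24 were on day 3 and 124 against 141 in sham. Penk, which encodes enkephalin, had 54 against 1 UMI, and the 348 thinned UMIs of the neuropeptide gene Vip were all in mature-gene cells.

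For each day the summed levels were then compared with sham. A gene entered if it reached 100 CPM in either library and 30 UMIs over both, and if the other kept cells of the higher library had at most 2 times the level of the Dlx+ cells. It is said to have risen or fallen at a ratio of at least 2 after 10 CPM were added to both levels. The ratios printed are of the plain CPM. A gene that entered only through the library where it is high had to differ, so counts of called genes within a list are descriptions and support no change of the list.

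On day 1, 25 of 1943 genes rose (1.29%) and 100 fell (5.15%), with a median log2 ratio of -0.07. Falls thus outnumbered rises, and Calb2 was among the largest. Calb2 was at 1171 CPM in sham and at 81.3, 2152 and 226 CPM on days 1, 3 and 7, a ratio of 0.0694 on day 1 (0.0556 to 0.0858), and it was found in 20, 11, 14 and 5 cells. It was high in sham and on day 3 and low on days 1 and 7. Genes of mural cells, the muscle cells and pericytes of vessels, had the same order in the Dlx+ cells, at 2262, 607, 2759 and 699 CPM for 7 genes, and 5, 6, 3 and 5 cells held 87.9% to 97.8% of them. Without cells that had 3 genes of another type, the day 1 log2 ratio of Calb2 was -3.45 in place of -3.69.

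Several other genes were also higher in sham and on day 3 than on days 1 and 7, with sham the highest. Shisa8, an auxiliary subunit of AMPA receptors, was at 226, 5.08, 165 and 5.505 CPM. Cpne6, a calcium sensor of dendritic spines, was at 229.7, 14.4, 179.9 and 3.67 CPM. Arc, an activity-induced gene that acts at synapses, was at 178, 3.39, 72.5 and 5.505 CPM, and the transcription factor gene Egr4 at 154, 2.54, 97.5 and 0 CPM. Both were found in 16 or 17 sham cells and in at most 4 cells on day 1. An alternative left out the mature-gene cells together with the 4, 34, 2 and 6 Dlx+ cells under 2000 UMIs, which could not be scored, and it is meant wherever mature-gene cells are left out. Leaving out those shallow cells alone gave 99 falls and 27 rises on day 1, 30 and 18 on day 3 and 117 and 81 on day 7, near the counts of all cells. Without the mature-gene cells the day 1 log2 ratios of Shisa8 and Arc were -0.44 and -0.77 in place of -3.97 and -3.81, short of 2-fold, whereas those of Cpne6 and Egr4 were -1.33 and -1.38.

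Penk was at 231 CPM in sham and 27.9 CPM on day 1, with 39.3% of the sham UMIs in 1 cell. Without the mature-gene cells its log2 ratio was 0.16. Thinned, those remaining cells held 0 Penk UMIs in sham and on day 1, so that value gives no direction. Rprml fell from 187 to 15.2 CPM, Cpne4 from 146 to 9.32 CPM and the adhesion gene Icam5 from 114 to 6.77 CPM. Gm42418, a noncoding RNA that overlaps AY036118 so that their counts are uncertain, went from 6213 to 772 CPM and was lower in every tMCAO library.

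**Figure D4:**
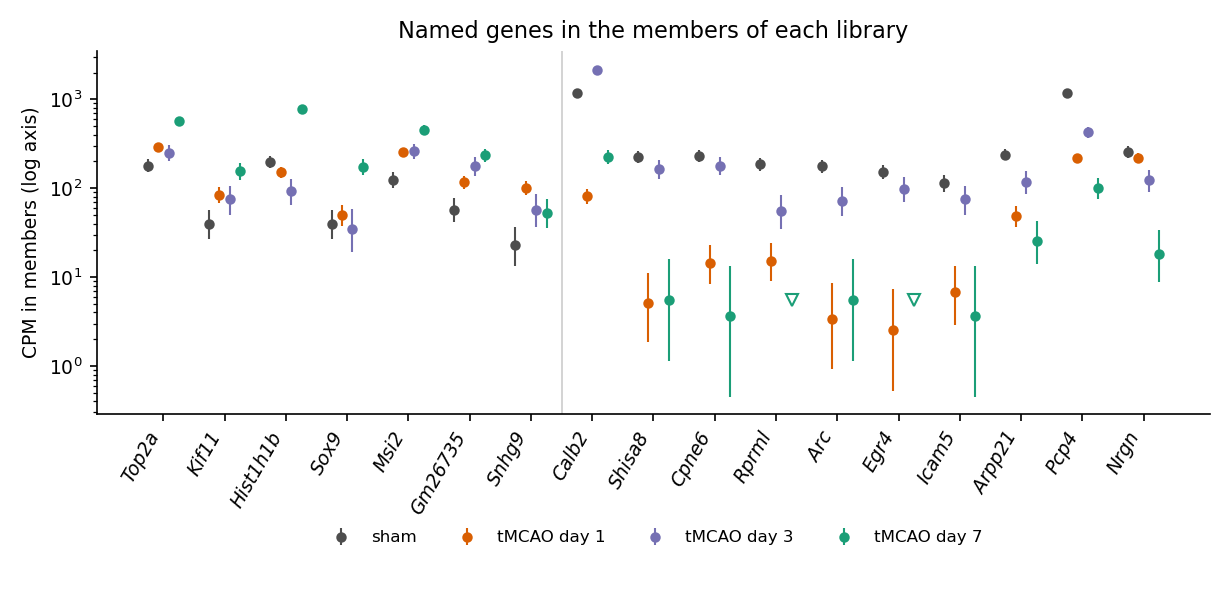
Level in the Dlx+ cells of genes named in the text, in CPM on a log axis, by library, with exact Poisson intervals; genes left of the grey line rose on at least 1 day and genes right of it fell, and triangles stand for 0 UMIs, drawn at the floor of 3 counts. Calb2, Shisa8 and Arc are high in sham and on day 3 and low on days 1 and 7.

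Among the 10 largest rises of day 1, most rested on few cells. Npy, Sst and Pvalb, a pair of neuropeptides and a calcium-binding protein of cortical interneurons, had 992, 164 and 237 UMIs on day 1 and 6, 1 and 0 in sham, and 66.6%, 93.3% and 76.4% of them were in 1 cell each. Pvalb was at least 50.1-fold higher, taking a floor of 3 counts over the sham cells. With the rule on thinned cells the log2 ratio of Npy was -0.56. With at most 3000 genes per cell those of Pvalb and Sst were 0 and 0.26. Kit rose from 17.4 to 108 CPM in 15 cells, and without the mature-gene cells its log2 ratio was 0.16.

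Snhg9, a noncoding RNA that hosts a small nucleolar RNA (chr17:24719531-24719965, minus strand), rose more broadly. It lies antisense within Rps2, a ribosomal protein gene, and how the counting treated strand was not given in the sources used here, so its level is uncertain. It went from 22.7 to 102 CPM (4.48-fold, 2.68 to 7.94), in 16 sham cells and 82 day 1 cells, with no cell above 4.17% of its day 1 UMIs, and stayed past 2-fold in all 14 alternatives. Ids, a lysosomal sulfatase, rose from 24.0 to 102 CPM (4.23-fold) in 50 cells and also stayed past 2-fold in all 14. Enpp2, Kl and Folr1 rose as well, to 1577, 116 and 125 CPM, beside the choroid plexus RNA given above, and with the study's own limit of at most 3000 genes per cell all 3 were below sham.

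Transcription factors of the ventral forebrain were lower on day 1. Of the 7 tested genes of this list 2 fell and 0 rose, where 5.15% of all tested genes fell and 1.29% rose, and the list stood at 0.551 times sham (0.518 to 0.586), with a median log2 ratio of -0.76. Meis2, which stays on in olfactory bulb interneurons, was at 1418, 618, 1557 and 1119 CPM, and its cofactor Pbx3 at 196, 72.0, 202 and 198 CPM. Sp9 had a ratio of 0.538. On days 3 and 7 these 3 genes were at 0.789 to 1.21 times sham. The day 1 ratio of the list stayed below 1 under each alternative, from 0.517 to 0.672.

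On day 3, 17 of 2024 genes rose (0.840%) and 30 fell (1.48%), with a median log2 ratio of 0.05, which made this the library closest to sham by count. Nrsn1, a vesicle protein of neurons, rose from 132 to 489.8 CPM (3.70-fold, 2.90 to 4.77) in 17 cells, but had a log2 ratio of 0.38 with the rule on thinned cells. The olfactory bulb factors Sp8 (102 to 217 CPM, 2.14-fold) and Etv1 (115 to 245 CPM, 2.13-fold) rose too.

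The 10 largest rises of day 3 also held Gm26735, Kcnip2, Rpgrip1, Kdelr2, Mylk, Serpine2 and Grcc10, at 2.23 to 3.09 times sham. Of these Kcnip2 rested on 8 cells and Mylk on 5. Over the 14 alternatives Gm26735 and Rpgrip1 stayed past 2-fold in 13, Kcnip2 in 11, Kdelr2 and Mylk in 10 and Serpine2 and Grcc10 in 8, and Serpine2 and Mylk turned below sham in at least 1. Among the falls, Vip had 670 UMIs in 3 sham cells, 659 in 7 day 1 cells, 0 on day 3 and 383 in 1 day 7 cell, so that it was at least 119-fold lower on day 3, from few cells in every library. Grin2b, the NMDA receptor subunit of young neurons, was at 279, 111, 90.0 and 55.0 CPM, a ratio of 0.322 on day 3 (0.220 to 0.461), and was below 0.5 on each day. Kif5c, a kinesin motor of axons, was at 151, 120.3, 42.5 and 187 CPM, and fell on day 3 alone.

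The 10 largest falls of day 3 included a pair of histone genes, whose counts may be shared with near-identical genes. Hist1h1e was at 638, 206, 215 and 897 CPM, low on days 1 and 3, and Hist1h4d at 168, 69.4, 52.5 and 127 CPM. With at most 3000 genes per cell, the day 3 log2 ratio of Hist1h4d was -0.26. Lars2, the mitochondrial leucine tRNA ligase, was at 248, 43.2, 80.0 and 134 CPM, and Chd3os at 239, 137, 70.0 and 78.9 CPM. Ncald, a neuronal calcium sensor, was at 148 CPM in sham and 42.5 CPM on day 3, and its direction turned without the mature-gene cells.

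On day 7, 75 of 2090 genes rose (3.59%) and 118 fell (5.65%), with a median log2 ratio of 0.00, which made this the library farthest from sham by count. Without the mature-gene cells, 45 rose and 17 fell on day 7 and 23 rose and 49 fell on day 1, so that day 1 had more. Genes of the cell cycle were among the rises, and all 3 tested genes of mature neurons fell. Top2a was at 180.3 CPM in sham and at 288, 249.9 and 573 CPM on days 1, 3 and 7, a ratio of 3.18 on day 7 (2.59 to 3.92), in 11 sham and 18 day 7 cells. With at most 3000 genes per cell its log2 ratio was 0.63, short of 2-fold. Mki67, the proliferation antigen, was at 122, 107, 90.0 and 249.5 CPM, a ratio of 2.05 on day 7 (1.56 to 2.71) that fell short of 2 once 10 CPM were added. Kif11, the motor that drives the spindle poles apart, rose from 40.1 to 156 CPM (3.89-fold) and Hist1h1b, a linker histone of S phase, from 199 to 784 CPM (3.94-fold, 3.26 to 4.78). Of the 8 tested genes of the cell cycle list 4 rose and 0 fell, namely Top2a, Cdk1, Cenpf and Nusap1, and the list stood at 1.90 times sham (1.76 to 2.06).

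The level of the cell cycle list depended on how cells were kept. With at most 3000 genes per cell its ratio to sham was 19.4 on day 1 and 6.98 on day 7. With the rule on thinned cells it was 0.892 on day 1 and 1.32 on day 7, and on day 3 it was 0.916, or 0.124 with a Dcx UMI required. The day 7 ratio was above 1 under each alternative, and the day 1 ratio was not.

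Sox9 and Msi2 were among the 10 largest rises of day 7. Sox9, a factor of neural stem cells and glia, was at 40.1, 49.96, 35.0 and 173 CPM (4.31-fold, 2.83 to 6.73) and was found in 37 of 76 cells against 18 of 95 in sham. Genes of astrocytes, which also carry Sox9, were at 116, 164, 192 and 220.2 CPM in the Dlx+ cells, 1.90 times sham on day 7 (1.43 to 2.53), and their part in the rise of Sox9 was not tested. The list of transit amplifying cells was at 1.33 times sham on day 7 (1.10 to 1.61), but at 0.799 with the rule on thinned cells. Of its 1 tested gene 0 rose, where 3.59% of all tested genes rose. Msi2, an RNA-binding protein of neural progenitors, was at 124, 257, 259.9 and 455 CPM (3.66-fold, 2.88 to 4.70) and had also risen on day 3. On day 7 Sox9 was short of 2-fold with the rule on thinned cells (log2 ratio 0.96) and Msi2 with at most 3000 genes per cell (0.64). Gm26735, a noncoding RNA on chr13:28943048-28951671 on the plus strand, which overlaps Sox4 on the other strand so that their counts are uncertain, was at 57.4, 118, 177 and 235 CPM and in 31 of 95 sham cells and 58 of 76 day 7 cells. Sox4 stood at 1.99 times sham (1.80 to 2.20) on day 7, just under the threshold. Tmem47 rose 4.20-fold, and Rpl23a, a ribosomal protein gene with many processed copies, 3.15-fold.

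The rise of Rarres2 and Clu on day 7 rested on 1 cell each for 64.5% and 54.5% of the UMIs, with 4 and 9 cells in all. Rarres2 is on the ependymal list, whose level was 12.0, 68.6, 35.0 and 305 CPM in the 4 libraries and of which 2 day 7 cells held 98.2%. Their part in the rise of Clu was not tested, and without cells that had 3 genes of another type its log2 ratio was -1.27.

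Pcp4, Nrgn and Arpp21 were among the 10 largest falls of day 7. Pcp4, a calmodulin regulator, was at 1183, 218, 425 and 101 CPM (0.0853, 0.0637 to 0.112). Nrgn, a calmodulin-binding protein of dendrites, was at 256, 220.2, 122 and 18.3 CPM (0.0716). Arpp21, of striatal and other forebrain neurons, was at 239, 48.3, 117 and 25.7 CPM (0.107). Rprml and Egr4 had 140 and 115 UMIs in sham and 0 on day 7, at least 34.0-fold and 27.9-fold lower. Cpne6, Shisa8, Arc, Icam5 and Mtfp1 were at 0.0160 to 0.0519 times sham. When the mature-gene cells were left out, Shisa8, Arc, Pcp4, Icam5 and Mtfp1 were short of 2-fold, and 17 genes fell on day 7 in place of 118, and 49 on day 1 in place of 100.

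Gene lists were summed next. The mature neuron list was at 1411 CPM in sham and at 1619, 1017 and 525 CPM on days 1, 3 and 7, and the genes that fell on day 7 included Snap25 (0.416) and Syt1 (0.361). Its ratio on day 7 was 0.372 (0.325 to 0.424) and stayed below 1 under each alternative, while that of day 1 ran from 0.582 to 1.44. Genes of olfactory bulb interneurons were at 1784, 385, 2966 and 448 CPM, and all 3 tested genes, Calb2, Pax6 and Synpr, fell on days 1 and 7, where 5.15% and 5.65% of all tested genes fell, and 0 rose or fell on day 3. In the other neurons the list had the same order, at 614, 271, 2800 and 321 CPM. Without cells that had 3 genes of another type, mural genes among them, the ratios of that list on days 1, 3 and 7 were 0.236, 1.48 and 0.205 in place of 0.216, 1.66 and 0.251. Its day 3 ratio was 1.66, but 0.470 without the mature-gene cells.

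Genes of cortical interneurons were at 1046, 1968, 129.9 and 983 CPM, and their order followed the few cells with Npy, Vip, Sst and Pvalb. Without the mature-gene cells the day 1 ratio was 0.431 in place of 1.88 and the day 3 ratio 0.860 in place of 0.124. The day 7 ratio, 0.941, was 0.226 without cells that had 3 genes of another type and 1.71 with at most 3000 genes per cell. Genes of striatal projection neurons were at 377, 245, 189.9 and 172 CPM, with Penk the only 1 of 11 tested. Without the mature-gene cells the ratios of that list were 1.72, 2.04 and 2.06 on days 1, 3 and 7 in place of 0.650, 0.504 and 0.458, and with the rule on thinned cells the day 7 ratio was 1.18. The dopamine receptor genes Drd1 and Drd2 had at most 6 UMIs in any library.

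**Figure D5:**
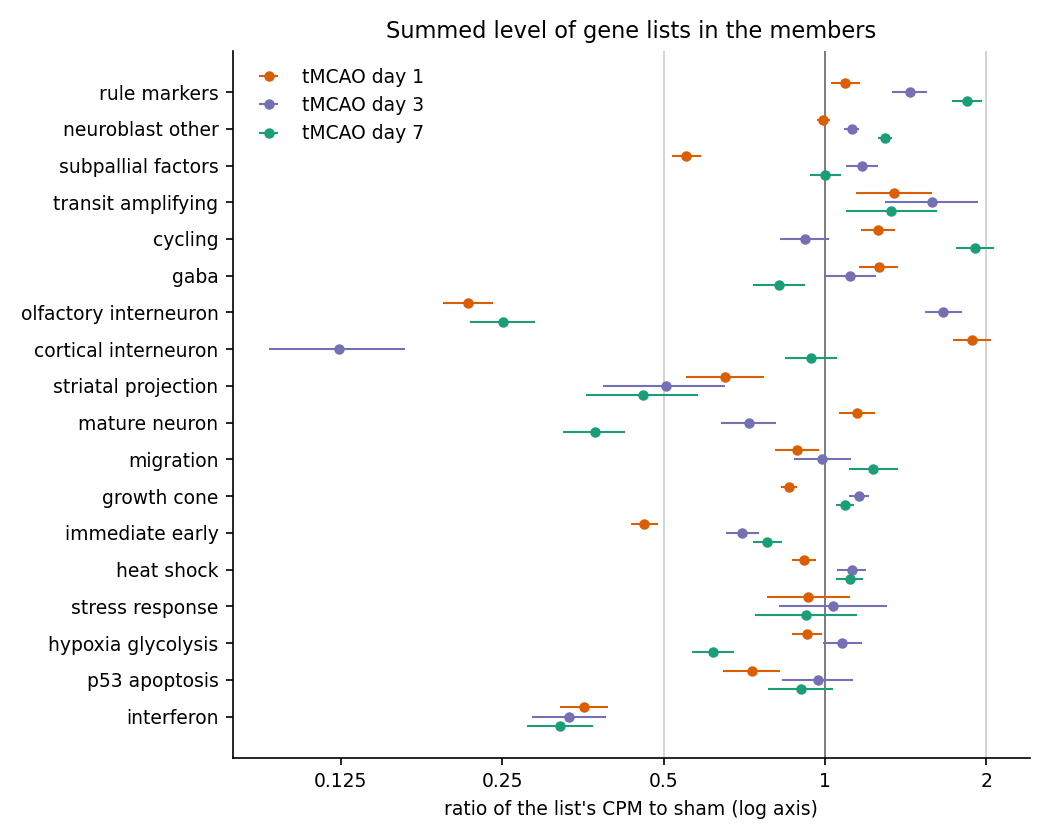
Ratio to sham of the summed level of each gene list in the Dlx+ cells on days 1, 3 and 7, with exact conditional intervals, on a log axis; grey lines mark 0.5 and 2. Olfactory interneuron genes lie below 0.3 on days 1 and 7 and mature neuron genes are lowest on day 7, while the 12 further neuroblast genes lie between 0.993 and 1.29 and the genes of the rule reach 1.84 on day 7.

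The 12 neuroblast genes that the rule did not read were at 0.993, 1.12 and 1.29 times sham on days 1, 3 and 7. Their medians were -0.05, 0.18 and 0.45 on the log2 scale. The ratios turned under some alternatives. Without the mature-gene cells the day 7 ratio was 0.974. The day 3 ratio was 0.936 with the rule on thinned cells and 0.993 with at most 3000 genes per cell. With each Dlx+ cell weighted alike the day 1 ratio was 1.21. Nrep on day 7 (2.10-fold) was the 1 gene of the 12 that rose, where 3.59% of all tested genes rose, while 0 fell on any day. Of all tested genes 5.15%, 1.48% and 5.65% fell on days 1, 3 and 7. GABA genes were at 1.26, 1.11 and 0.821 times sham, with 1 of the 4 tested genes past 2-fold on day 1, where 1.29% of all tested genes rose. Without the mature-gene cells their ratios on days 1 and 7 turned, to 0.738 and 1.25. With the rule on thinned cells those of days 1 and 3 were 0.923 and 0.849, and with at most 3000 genes per cell that of day 1 was 0.975.

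Of the machinery of migration, the list of 15 guidance and adhesion genes was at 0.887, 0.989 and 1.23 times sham. Between 2 and 5 of the genes were tested on a day, and Epha4, an ephrin receptor, rose on day 7 (66.8 to 159.6 CPM, 2.39-fold, 1.67 to 3.46). It was 1 of 5 tested on that day, where 3.59% of all tested genes rose. On days 1 and 3, where 1.29% and 0.840% of all tested genes rose, 0 of the list did. Cxcr4, the receptor for the chemokine Cxcl12 that draws neuroblasts to injured vessels, had 2, 6, 2 and 6 UMIs, too few to compare. Erbb4, the neuregulin receptor, was at 73.4, 125, 105 and 121 CPM.

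In the growth cone list, 1 gene rose on each day, of 8, 7 and 8 tested, where 1.29%, 0.840% and 3.59% of all tested genes rose. Dpysl2, the collapsin response mediator that builds axonal microtubules, was at 220.3 CPM in sham and 495, 457 and 527 CPM on days 1, 3 and 7 (2.25-fold, 2.08-fold and 2.39-fold), and was found in 68 of 95 sham cells and 169 of 211 day 1 cells. The other genes of the list, among them Gap43, Marcksl1 and Tuba1a, did not pass 2-fold, and the list was at 0.857, 1.16 and 1.09 times sham. Each of these ratios turned under some alternative. With each Dlx+ cell weighted alike the day 1 ratio was 1.10. With the rule on thinned cells those of days 3 and 7 were 0.993 and 0.883.

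Immediate early genes, which cells switch on soon after a stimulus, were highest in sham, although not under each alternative. The list was at 3724, 1713, 2611 and 2908 CPM, and Npas4, a factor induced by synaptic input, was at 118, 12.7, 57.5 and 20.2 CPM. Only 3 of the 9 genes, Arc, Npas4 and Egr1, were tested, and Arc and Npas4 entered on each day through sham alone. Fos, which was not tested because the other kept cells were over 2 times as high in each library, was at 1200, 505, 902 and 776 CPM. With the rule on thinned cells the ratios of the list to sham were 1.05, 1.48 and 2.41 on days 1, 3 and 7 in place of 0.460, 0.701 and 0.781, so that sham was lowest, and without the mature-gene cells the day 7 ratio was 1.17. In the other neurons the list was at 2322, 1085, 2151 and 2203 CPM in sham and on days 1, 3 and 7. In endothelial-like cells it was at 13207, 7433, 8285 and 14671 CPM in that order, highest on day 7.

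By summed level, the lists of injury programmes described next stayed under 2 times sham on each day. Heat shock genes were at 0.913, 1.12 and 1.11 times sham and genes of the integrated stress response at 0.929, 1.04 and 0.923 times. Within the heat shock list Hspa1a, the inducible chaperone, was at 60.1, 163, 217 and 64.2 CPM, ratios of 2.71 (1.95 to 3.83) on day 1 and 3.62 (2.496 to 5.31) on day 3, but did not pass the filters, and 82.2% of its sham UMIs were in 1 cell. Genes of hypoxia and glycolysis were at 0.926, 1.08 and 0.619 times, and the glycolytic enzyme Aldoa fell on day 7 (784 to 273 CPM, 0.349, 0.289 to 0.418). Without the mature-gene cells the day 7 ratio of the hypoxia and glycolysis list was 1.05 in place of 0.619. Among p53 and apoptosis genes, at 0.730, 0.971 and 0.901 times, the cell cycle inhibitor Cdkn1a was at 209.6, 61.8, 117 and 84.4 CPM and fell on days 1 and 7 (0.295 and 0.403), whereas the death gene Bax did not pass 2-fold on any day.

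Interferon-induced genes were at 1394 CPM in sham and at 495, 465 and 448 CPM on days 1, 3 and 7, but 0 of the 8 genes passed the filters, and in the other kept cells the list was at 6294, 1676, 3889 and 2059 CPM. Isg15 had 192 UMIs in 17 sham cells, 34.9% of them in 1 cell. With the rule on thinned cells the day 3 ratio was 1.40 in place of 0.333.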

How the data were processed

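Single-cell RNA-seq was run on 10x Genomics libraries of 4 groups, 1 library each. As deposited, the files hold counts of UMIs for 31053 features in each called cell, without normalization. The matrix headers name Cell Ranger 4.0.0, whereas the submitters' processing notes name Cell Ranger 3.0.1, Seurat 4.1.2 and GRCh38. The identifiers are mouse identifiers, and 99.9% of them are in the GENCODE vM21 annotation of GRCm38, from which coordinates were taken. CPM, percents, ratios and log2 ratios were computed here from the deposited counts.

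Other neurons had UMIs of at least 3 of 6 mature neuron genes and endothelial-like cells of at least 3 of 6 endothelial genes, both outside the Dlx+ cells. Named genes are, per day, the 10 largest rises and 10 largest falls among called genes whose interval leaves out 1, the rule genes, and examples from 30 gene lists. Some genes of these sets are not reported here. The members and lists were chosen with earlier results of these data known. Summed UMIs have exact Poisson intervals, ratios exact conditional intervals, and shares exact Clopper-Pearson intervals, all at 95%. Doublets called by Scrublet were kept, except in an alternative. Promoter sequences are from RefSeq. The comparison was tested on simulated data. 55 pairs of a result and an alternative were planned, and 2 alternatives were added after seeing the data. Python 3.11.15, NumPy 2.4.6, pandas 2.3.3, SciPy 1.17.1, Scanpy 1.11.5 and matplotlib 3.10.9 were used.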

Additional observations from a re-analysis of the deposited data

How the results depend on the processing

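The depth of the Dlx+ cells limits the comparisons, with 400182 UMIs on day 3, and intervals leave out the spread between mice. No paired analysis was possible because each group had 1 library. Leaving out cells with at least 3 genes of an endothelial, mural, choroid plexus or ependymal list, and leaving out cells under 2000 UMIs, were chosen after seeing the data. The second moved no count of rises or falls by over 1.5 times. Leaving out mature-gene cells also left out the cells under 2000 UMIs. A limit of 2 UMIs of all other-type genes was not run for levels, since it left 5, 15, 2 and 22 cells. Where a value below moved or turned, the cause was not tested.

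The sham share of kept cells (0.932%) was 0.754% at 3000 genes, 1.18% at 5% mitochondrial UMIs, 0.706% with 3 Dlx genes, 0.527% on thinned cells and 0.726% without cells of another type's genes. The day 1 share (1.26%) was 0.628% with 3 Dlx genes, 0.927% with Dcx required, 0.927% on thinned cells and 1.04% without other-type genes. The day 3 share was 0.496% with 3 Dlx genes, and the day 7 share 0.320%, 0.621% and 0.350% at 3000 genes, at 5% mitochondrial UMIs and without other-type genes. Thinned to 1000 UMIs, mature-gene cells were 26.3%, 12.4% and 4.00% in sham and on days 1 and 7.

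Rises on day 1 (25) numbered 62 at 3000 genes, 39 without other-type genes, 15 with 50 CPM added, 63 from 50 CPM, 129 with no limit on the level and 45 with no limit on the other kept cells. Falls on day 1 (100) numbered 49 without mature-gene cells, 54 with 50 CPM added, 186 from 50 CPM and 234 with no limit on the level. Rises on day 3 (17) numbered 31 at 3000 genes, 41 with 3 Dlx genes, 28 with Dcx required, 31 on thinned cells, 26 without mature-gene cells, 11 with median-of-ratios scaling, 4 with 50 CPM added, 59 from 50 CPM, 67 with no limit on the level and 26 with none on the other kept cells. Falls on day 3 (30) numbered in the same order 58, 47, 53 and 61, then 47 with no UMI of Mog, C1qa and Pdgfra, 77 without other-type genes, 15 with 50 CPM added, 73 from 50 CPM, and 99 and 49 with no limit on the level or on the other kept cells. Rises on day 7 (75) numbered 45 without mature-gene cells, 120 without other-type genes, 31 with 50 CPM added, 138 from 50 CPM and 183 with no limit on the level, and falls (118) numbered 17, 182, 77, 238 and 303.

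Of 108 values of list ratios past 2-fold as reported, 4 turned, and of 612 values of ratios short of 2-fold 104 did, 20 of them on thinned cells, such as the cell cycle list on day 1 (0.892), transit amplifying genes on day 7 (0.799) and immediate early genes on days 3 and 7 (1.48 and 2.41). With 3 Dlx genes, transit amplifying genes were at 0.585 on day 3. Among ratios past 2-fold and named genes, these turned. On thinned cells, ratios became 1.18 (striatal list, day 7), 1.05 (immediate early list, day 1) and 1.40 (interferon list, day 3), and log2 ratios -0.56 (Npy), -0.51 (Kl), 0.18 (Penk) and 0.22 (Ncald). Without mature-gene cells the striatal list was at 2.06 on day 7, and log2 ratios were -0.80 (Serpine2), 0.077 (Ncald) and 0.16 (Penk, with too few UMIs to give a direction). At 3000 genes they were -1.45 (Enpp2), -0.63 (Kl), -1.06 (Folr1), -0.83 (Mylk) and -2.58 (Clu). Without other-type genes Mylk was at -0.83 and Clu at -1.27. Over all alternatives, 562 log2 ratios of named genes stayed within the counting interval, 222 moved outside it with the same direction and 14 turned.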

Other observations

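Receptors for growth factors, in a list of 8 genes, were at 323 CPM in the Dlx+ cells of sham and at 517, 262 and 494 CPM on days 1, 3 and 7. Without cells that had 3 genes of another type, the day 7 ratio of the list to sham was 0.961 in place of 1.53. Kit was the only 1 of 3 tested genes that rose on day 1, where 1.29% of all tested genes rose, and its log2 ratio was 0.16 without the mature-gene cells. Ntrk2, the receptor for BDNF, was at 102, 160.1, 85.0 and 125 CPM. Genes of the Notch pathway, which holds neural stem cells back from differentiating, were low throughout, at 219, 195, 205 and 204 CPM for 8 genes together. Hes1, a target of the pathway, had 51, 43, 3 and 16 UMIs. Of these genes only Notch1 on day 7 was high enough to compare, and it was at 1.63 times sham (1.09 to 2.45).

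Prox1, a homeobox gene of newborn granule neurons and some interneurons, was at 56.1, 72.0, 30.0 and 116 CPM in the 4 libraries.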
